A study of Zea mays with 12 samples.

Results

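In developing maize seeds, 90 nuclear genes were counted at no more than 0.25 of their wild-type level in *zmmsh7-2* mutant seeds both 7 and 14 days after pollination (DAP). They were chosen by CPM (a gene's count per 1000000 counts of its library), averaged over the 3 libraries of a group. A gene had to reach 2 CPM in wild type at each stage, and its mutant mean had to be at most 0.25 of the wild-type mean at each stage. The tables hold 46430 identifiers, of which 44146 are nuclear gene models and 18617 passed the wild-type floor. The 90 genes are 0.483% of those 18617. The same rule with the genotypes exchanged, for genes higher in the mutant, found 23.

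Whole-seed RNA was profiled by RNA-seq in 4 groups of 3 libraries. The groups were wild type (marked AA in the labels) at 7 DAP, the mutant (marked aa, made by CRISPR and described as an MSH7 knockout, allele *zmmsh7-2*) at 7 DAP, and the same genotypes at 14 DAP. The labels name no inbred background, and do not say whether replicates came from separate plants or ears or how many independent lines were used. The p-values below thus reflect library-to-library spread alone, and that spread may be technical. In whole seeds, fewer cells of a type and less RNA per cell cannot be told apart.

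MSH7 belongs to the plant MutS homologs, proteins that recognise mismatched bases in DNA so that they can be repaired. The series is concerned with its part in pollen fertility and grain yield. A maize seed holds an embryo and an endosperm inside maternal tissue. Around 7 DAP the endosperm has become cellular and its cells are still dividing, and by 14 DAP starch and storage proteins are being laid down. Many transcripts change over this interval without any mutation, so the behaviour of the 90 genes between the stages is described beside that of all other genes. The nuclear identifiers have no gene names in the sources used here, with 0 of the 90 matched in the reference gene table. The genes are therefore called by identifier, and no product or function is given. MSH7 itself, the markers of seed tissues and the list of mismatch repair genes were not analysed here.

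Library totals lay between 16854595 and 21932590 counts. The 90 genes together took 0.464% ± 0.00634 of counts in wild type at 7 DAP and 0.0676% ± 0.000275 in the mutant (SD, n = 3 each). At 14 DAP they took 0.25% ± 0.00475 in wild type and 0.0373% ± 0.0011 in the mutant (SD, n = 3 each). Their share of the library was thus lower at 14 DAP than at 7 DAP in both genotypes. The low mutant levels are what chose the genes, so the genotype difference is given here as a description, without a test.

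The 90 genes spanned a wide range of abundance. Wild-type means at 7 DAP ran from 2.09 to 547 CPM with a median of 19.5 CPM, against a median of 24.8 CPM over all 18617 genes past the floor. At 14 DAP they ran from 2.12 to 553 CPM with a median of 9.62 CPM, against 20.0 CPM over all genes past the floor. The floor sets the lower end. At 7 DAP, 31 of the genes had a wild-type mean below 10 CPM, 36 had 10 to 50 CPM, and 23 had more. In the mutant the medians were 2.71 CPM at 7 DAP and 1.03 CPM at 14 DAP. The highest mutant means were 80.3 and 116 CPM, so the group includes transcripts that remained well counted in the mutant.

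The depth of the reduction varied several-fold among the genes. At 7 DAP the mutant retained 2.69% to 24.9% of the wild-type level, with a median of 15.0%, where all genes past the floor had a median of 103%. At 14 DAP it retained 1.24% to 24.9%, with a median of 13.7%, against 107% for all genes past the floor. As folds, the genes were lower by a median of 6.69-fold at 7 DAP and 7.32-fold at 14 DAP. At most 10% of wild type was left for 24 genes at 7 DAP and for 31 at 14 DAP, and for 10 at both stages. The share left was lower at 14 DAP than at 7 DAP for 49 of the 90, against 46.6% of genes past the floor. At most 5% was left for 8 genes at 7 DAP and for 15 at 14 DAP. None of the 90 was at 0 counts in all 3 mutant libraries of a stage. Single mutant libraries at 0 counts occurred for Zm00001d025409 at 7 DAP (replicate 2) and for Zm00001d033517 and Zm00001d034067 at 14 DAP (replicate 3). These 3 were singled out after their values were seen.

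**Figure D1:**
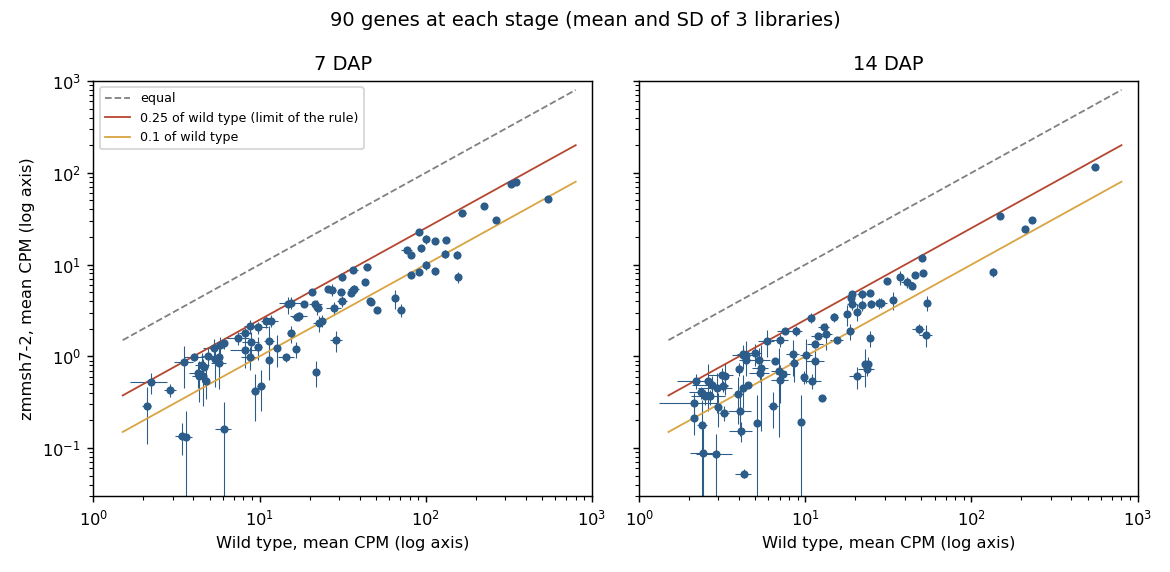
Mean CPM of the 90 genes in wild type (horizontal) and in the zmmsh7-2 mutant (vertical) at 7 DAP (left) and 14 DAP (right), on log axes. Points are means and bars SD of 3 libraries, with the lower end of a bar held above 0 where SD is close to or above the mean. The red line is the limit of the rule, 0.25 of wild type, and the points lie under it down to below 0.1 of wild type, over wild-type levels from 2.09 to 553 CPM.

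In every one of the 90 genes the highest mutant library lay below the lowest wild-type library, at 7 DAP and at 14 DAP. Such a separation was found for 35.6% of all genes past the floor at 7 DAP and 28.7% at 14 DAP, and it follows largely from the rule. A stricter condition asked that every mutant library be at most 0.25 of every wild-type library of the stage. It was met by 70 of the 90 at 7 DAP and 69 at 14 DAP. Among genes past the floor, 167 (0.897%) met it at 7 DAP and 184 (0.988%) at 14 DAP. A gene that meets it also has a ratio of means of at most 0.25, so this contrast follows from the rule too. By their means, 242 genes past the floor were at most 0.25 at 7 DAP and 291 at 14 DAP. At both stages 57 genes met the stricter condition, all of them among the 90. Replicates varied more in the mutant, where counts were few. The coefficient of variation had a median over the 90 genes of 5.16% in wild type and 14.0% in the mutant at 7 DAP, and of 7.24% and 18.4% at 14 DAP.

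The rule was also applied with 1 replicate number held out of all 4 groups, and the genes it then chose were read in the held-out libraries, which had no part in that choice. Without replicate 1 the rule chose 81 genes, and in the held-out libraries 72 of the 81 were again at most 0.25 of wild type at both stages (88.9%). Without replicate 2 it chose 95 genes, and 72 of the 95 met both limits in the held-out libraries (75.8%). Without replicate 3 it chose 90 genes, and 69 of the 90 met both limits (76.7%). Across the 3 choices the held-out libraries had a median of 14.5% to 15.8% of wild type at 7 DAP and 12.8% to 14.6% at 14 DAP. The largest held-out value was 70.3% of wild type, at 14 DAP. Replicates may come from the same plants or ears, so these shares describe how well libraries repeat and nothing more.

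The limit of 0.25 does not mark a gap. Just inside it lay Zm00001d039644, at 0.249 of wild type at 7 DAP, Zm00001d029716, at 0.249 at 14 DAP, and Zm00001d042243, at 0.249 at 14 DAP. Just outside lay Zm00001d015963, at 0.252 of wild type at 7 DAP and 0.169 at 14 DAP, Zm00001d021192, at 0.252 at 14 DAP and 0.174 at 7 DAP, and Zm00001d029884, at 0.252 at 7 DAP and 0.196 at 14 DAP. The larger ratio of a gene was thus nearly the same on both sides of the limit. At the other stage the genes just inside were at 0.0124, 0.155 and 0.102 of wild type, in the order named.

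At a single stage the limit was passed by more genes. Of the 18617 genes past the floor, 242 were at most 0.25 of wild type at 7 DAP (1.3%) and 291 at 14 DAP (1.56%). The 90 are 37.2% of the first list and 30.9% of the second. The comparisons of the stages share no library. Genes chosen at 7 DAP alone had a median of 34.5% of wild type at 14 DAP, with quartiles of 17% and 55.5%. Those chosen at 14 DAP alone had a median of 39.1% at 7 DAP, with quartiles of 21.9% and 60.1%. None of the 242 and none of the 291 was 4-fold or more higher in the mutant at the other stage. Over all genes past the floor the upper quartile was 128% of wild type at 7 DAP and 125% at 14 DAP. The share of those genes that were 4-fold or more higher was not counted, so this absence is no result about the lists.

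The 6 genes with the most counts in wild type all kept measurable mutant levels. CPM is not divided by gene length, so these are the most counted genes and not a ranking of transcript number. Zm00001d006753 had 565, 538 and 537 CPM in the wild-type libraries at 7 DAP and 51.7, 53.6 and 51.3 CPM in the mutant libraries. At 14 DAP it had 561, 575 and 523 CPM in wild type and 114, 123 and 110.0 CPM in the mutant. The wild-type level was about the same at both stages, and the mutant libraries at 14 DAP were all higher than those at 7 DAP. It was 10.5-fold lower in the mutant at 7 DAP and 4.78-fold lower at 14 DAP.

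Zm00001d009631 had 348, 354 and 347 CPM in wild type and 78.8, 82.8 and 79.3 CPM in the mutant at 7 DAP. At 14 DAP the values were 229, 230.1 and 237 CPM in wild type and 32.9, 29.6 and 29.8 CPM in the mutant. It moved the opposite way to the preceding gene, from 4.35-fold lower at 7 DAP to 7.54-fold lower at 14 DAP. Zm00001d002316 had 327, 327 and 323 CPM against 74.1, 76.9 and 74.8 CPM at 7 DAP, and 148, 152 and 149 CPM against 31.4, 33.6 and 35.7 CPM at 14 DAP. Its reduction was of similar size at the stages, 4.33-fold and 4.45-fold.

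Zm00001d049543 fell steeply with age in both genotypes. It had 266, 263 and 271 CPM in wild type and 30.7, 31.1 and 29.2 CPM in the mutant at 7 DAP. At 14 DAP it had 52.6, 49.2 and 52.0 CPM in wild type and 8.42, 7.53 and 8.25 CPM in the mutant, so that the mutant at 7 DAP was already below wild type at 14 DAP. Zm00001d008749 showed the same order of groups, with group means of 224 ± 2.08 CPM in wild type and 43.8 ± 1.24 CPM in the mutant at 7 DAP, and 45.7 ± 0.394 and 7.77 ± 0.493 CPM at 14 DAP (SD, n = 3 each). Zm00001d029087 rose with age instead, from 93.3 ± 3.09 to 211 ± 3.90 CPM in wild type and from 15.1 ± 1.23 to 24.3 ± 1.61 CPM in mutant libraries (SD, n = 3 each).

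**Figure D2:**
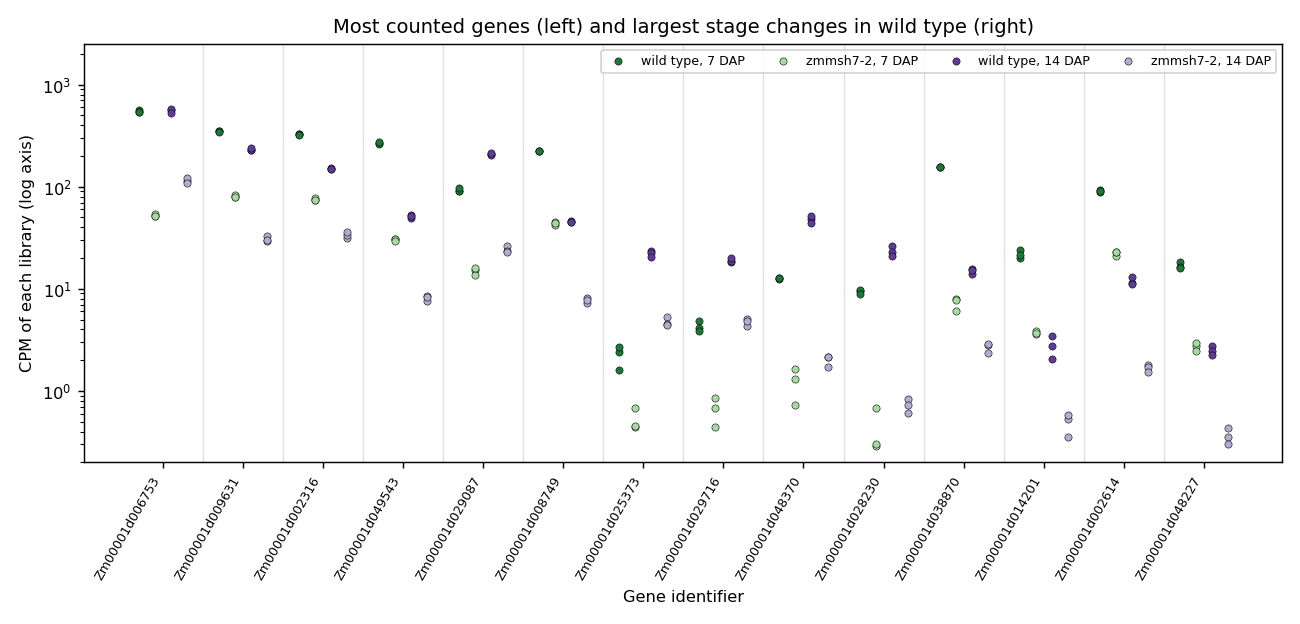
CPM of each library (log axis) for the 6 most counted of the 90 genes (left) and the 8 with the largest rise or fall in wild type between the stages (right). Each dot is 1 library, dark colours are wild type and pale colours the mutant. For every gene shown the pale dots lie below the dark dots of the same stage.

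At the other end, 6 genes had the fewest mutant counts over the 6 mutant libraries. Zm00001d021279 had 3.75, 3.12 and 3.44 CPM in wild type against 0.196, 0.114 and 0.1 CPM in the mutant at 7 DAP, resting on 8 mutant counts in all. At 14 DAP it had 3.69, 2.34 and 2.66 CPM against 0.0593, 0.0486 and 0.152 CPM, resting on 5. All mutant libraries were far below wild type, but the size of the fold is poorly fixed. Zm00001d025409 was at 3.59 ± 0.341 CPM in wild type and 0.132 ± 0.123 CPM in the mutant at 7 DAP, and at 6.39 ± 0.461 and 0.285 ± 0.121 CPM at 14 DAP (SD, n = 3 each).

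The other 4 of these genes were less reduced at 7 DAP. Zm00001d033517 had 2.23, 2.06 and 1.99 CPM in wild type against 0.489, 0.171 and 0.2 CPM in the mutant at 7 DAP, and 2.60, 2.69 and 1.97 CPM against 0.119, 0.146 and 0 CPM at 14 DAP. With 5 mutant counts at 14 DAP it was 27.7-fold lower (95% counting interval 11.6 to 86.6), against 7.12-fold (4.28 to 12.6) at 7 DAP. Zm00001d052209 was 6.72-fold lower at 7 DAP (4.75 to 9.76) and 26.2-fold lower at 14 DAP (13.6 to 58.0). The intervals of this gene at the stages do not overlap. Zm00001d040526 was 6.69-fold lower at 7 DAP (4.39 to 10.6) and 13.2-fold lower at 14 DAP (7.67 to 24.5), and Zm00001d009112 was 8.60-fold (5.96 to 12.8) and 10.6-fold lower (6.36 to 19.0), with intervals that overlap. These intervals are exact, from counts summed over the 3 libraries of a group, and cover counting error only.

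The lowest share of wild type at 14 DAP was that of Zm00001d039644, which was also the gene nearest to the limit at 7 DAP. It had 3.5, 3.07 and 3.97 CPM in wild type and 1.03, 1.20 and 0.401 CPM in the mutant at 7 DAP. At 14 DAP it had 4.74, 4.24 and 3.79 CPM in wild type and 0.0593, 0.0486 and 0.0506 CPM in the mutant, which is 1 count in each of the 3 mutant libraries. The ratio at 14 DAP was 81.4-fold with a 95% counting interval of 27.5 to 397, against 4.07-fold (2.98 to 5.65) at 7 DAP. The lowest share at 7 DAP, 2.69%, was that of Zm00001d016152, with 6.18, 5.37 and 6.69 CPM in wild type against 0.0978, 0.343 and 0.0501 CPM in the mutant. It is one of the 10 genes at no more than 10% of wild type at both stages, and was singled out for that value.

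Among those 10, Zm00001d033300 and Zm00001d011735 had the highest wild-type levels at 7 DAP. Zm00001d033300 had 68.1, 65.3 and 63.1 CPM in wild type and 3.91, 3.54 and 5.36 CPM in the mutant at 7 DAP, and 52.9, 56.1 and 54.1 CPM against 4.51, 3.16 and 3.80 CPM at 14 DAP. It was 15.3-fold and 14.2-fold lower, nearly the same at the stages. Zm00001d011735 was 22.2-fold lower at 7 DAP and 13.1-fold lower at 14 DAP. The others of the 10 were Zm00001d028230, Zm00001d016152, Zm00001d021279, Zm00001d009473, Zm00001d012510, Zm00001d035162, Zm00001d048370 and Zm00001d025409, at 2.69% to 9.73% of wild type at 7 DAP and 2.99% to 9.84% at 14 DAP. The values of this set were seen before it was named.

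How the 90 genes behaved from 7 to 14 DAP was asked next. In wild type most of them fell with age. Of the 90, 60 fell and 20 rose, and 10 were not called, by edgeR's quasi-likelihood test at a Benjamini-Hochberg adjusted p below 0.05 over all genes. Among all 18617 genes past the floor 41.2% fell and 43.1% rose (39.8% and 40.8% of all genes tested). Beyond 2-fold, 38 of the 90 fell and 10 rose, where 12.6% and 13.8% of genes past the floor did. The median log2 fold change of the 90 was −0.79, against 0.03 for all genes past the floor.

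The rule set no condition on this change other than the floor at each stage, which all genes in that comparison share. Seen from the other side, the 90 make up 1.61% of the 2355 genes past the floor that fell beyond 2-fold in wild type, 0.389% of the 2574 that rose beyond 2-fold and 0.307% of the other 13688. The stages were deposited as separate tables, and stage cannot be told apart from any batch that goes with the table. The stage changes also depend on the scaling, since the composition factor (TMM) moves them all by a nearly constant amount. With library totals only, the median of all genes tested was −0.30, that of the 90 was −1.11, and 66 of the 90 fell and 12 rose, where 55.7% and 29.5% of genes past the floor did.

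The 4 largest falls in wild type were those of Zm00001d038870, Zm00001d014201, Zm00001d002614 and Zm00001d048227. Zm00001d038870 had 157, 157 and 156 CPM at 7 DAP and 15.6, 14.0 and 15.2 CPM at 14 DAP in wild type, a 10.5-fold ratio of means (log2 fold change of −3.07 with an SE of 0.05, adjusted p = 6.87e-82 by edgeR). In the mutant it had 7.97, 6.11 and 7.76 CPM at 7 DAP and 2.85, 2.87 and 2.33 CPM at 14 DAP. The mutant level also fell, but by less, so that wild type and mutant were closer at 14 DAP. Zm00001d014201 went from 21.7 ± 1.92 to 2.74 ± 0.676 CPM in wild type and from 3.70 ± 0.162 to 0.491 ± 0.120 CPM in the mutant (SD over 3 libraries each), a near-parallel fall in the genotypes.

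Zm00001d002614 had 92.7, 89.5 and 91.7 CPM at 7 DAP and 11.5, 11.1 and 13.0 CPM at 14 DAP among wild-type libraries (log2 fold change of −2.62 with an SE of 0.06, adjusted p = 6.26e-69 by edgeR). Its mutant libraries had 20.9, 23.1 and 23.2 CPM at 7 DAP and 1.78, 1.70 and 1.52 CPM at 14 DAP. Zm00001d048227 went from 16.8 ± 1.18 to 2.50 ± 0.262 CPM in wild type and from 2.70 ± 0.232 to 0.366 ± 0.0673 CPM in mutant libraries (SD, n = 3 each). For all 4 genes the wild-type libraries of the stages were far apart. The 38 genes that fell beyond 2-fold in wild type had wild-type means of 5.69 to 266 CPM at 7 DAP and 2.12 to 53.0 CPM at 14 DAP. They retained a median of 15.7% of the wild-type level in the mutant at 7 DAP and 15.4% at 14 DAP.

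The 4 largest rises in wild type were those of Zm00001d025373, Zm00001d029716, Zm00001d048370 and Zm00001d028230. Zm00001d025373 had 2.38, 2.68 and 1.6 CPM at 7 DAP and 23.6, 22.3 and 20.3 CPM at 14 DAP among wild-type libraries (log2 fold change of 3.63 with an SE of 0.13, adjusted p = 3.58e-51 by edgeR). Its mutant libraries had 0.440, 0.686 and 0.451 CPM at 7 DAP and 5.34, 4.52 and 4.41 CPM at 14 DAP. The mutant at 14 DAP thus lay above wild type at 7 DAP, while staying 4.64-fold below wild type of its own stage. Zm00001d029716 rose likewise in both genotypes, being at 4.25 ± 0.505 and 19.1 ± 0.851 CPM in wild type and 0.659 ± 0.207 and 4.75 ± 0.39 CPM in mutant libraries (SD, n = 3 each).

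Zm00001d048370 and Zm00001d028230 rose in both genotypes from very low mutant levels. Zm00001d048370 had 12.8, 12.4 and 12.9 CPM in wild type at 7 DAP and 48.8, 51.7 and 43.7 CPM at 14 DAP (log2 fold change of 2.24 with an SE of 0.08, adjusted p = 8.13e-53 by edgeR). In the mutant it had 0.734, 1.31 and 1.65 CPM at 7 DAP and 1.72, 2.14 and 2.13 CPM at 14 DAP. Zm00001d028230 had 9.62, 9.78 and 8.87 CPM against 0.685, 0.286 and 0.301 CPM at 7 DAP, and 26.2, 23.0 and 21.0 CPM against 0.831, 0.729 and 0.608 CPM at 14 DAP. The rise in the mutant had a log2 fold change of 0.997 for Zm00001d048370 (SE 0.22, edgeR adjusted p = 3.76e-05) and 1.01 for Zm00001d028230 (SE 0.36, edgeR adjusted p = 0.00918). The call of the second was lost with library totals (0.73) and without replicate 2 (0.81) or replicate 3 (0.80) of the mutant at 7 DAP, and its difference from the rise in wild type was not called. In both genes the mutant at 14 DAP remained below wild type at 7 DAP. The 10 genes that rose beyond 2-fold in wild type retained a median of 13.3% of wild type at 7 DAP and 5.65% at 14 DAP.

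In the mutant, too, more of the 90 genes fell than rose between the stages. The rule limits the mutant mean relative to wild type at each stage. The mutant change is therefore not independent of the wild-type change and is read as a description. Of the 90 genes, 52 fell and 15 rose from 7 to 14 DAP in the mutant and 23 were not called, where 40.9% of genes past the floor fell and 42.5% rose (39.6% and 39.3% of all genes tested). Beyond 2-fold, 41 fell and 8 rose, against 12.8% and 12.5% of genes past the floor. The median log2 fold change of the 90 in the mutant was −0.89, with a median SE of 0.23, against 0.02 for all genes past the floor. In wild type the median SE of the 90 was 0.10. With library totals only, 63 fell and 10 rose in the mutant, against 55.3% and 29.3% of genes past the floor. Falls in both genotypes were called for 46 genes and rises in both for 12, where 33.1% of genes past the floor fell in both and 35.4% rose in both. The 46 had a median log2 fold change of −1.37 in wild type and −1.77 in the mutant.

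Opposite directions were called for 3 genes, against 5.4% of genes past the floor, and these 3 are named here after their values were seen. Zm00001d012322 had 140, 127 and 130.2 CPM in wild type and 18.1, 18.7 and 19.0 CPM in the mutant at 7 DAP, and 139, 136 and 130 CPM against 7.59, 9.23 and 7.95 CPM at 14 DAP. Its rise in wild type (log2 fold change of 0.35 with an SE of 0.04, adjusted p = 8.5e-15 by edgeR) was called only relative to other genes and was lost with library totals (0.03), while its fall in the mutant (−0.88, SE 0.08, edgeR adjusted p = 7.96e-19) was kept there (−1.16). Zm00001d039644 likewise lost its rise in wild type (0.60, SE 0.19, edgeR adjusted p = 0.00371) with library totals (0.28), and its fall in the mutant rests on the 3 counts given above. Zm00001d042880 fell in wild type (−0.59, SE 0.06, edgeR adjusted p = 1.88e-15) and rose in the mutant (0.57, SE 0.13, edgeR adjusted p = 5.48e-05), from 46.1 to 24.6 CPM and from 3.97 to 4.85 CPM. Both of its calls were kept with library totals (−0.91 and 0.29).

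**Figure D3:**
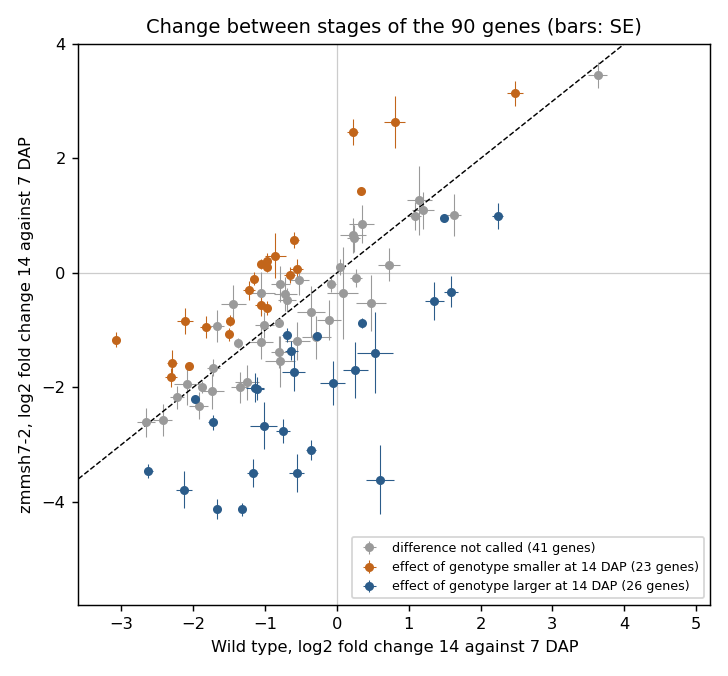
Log2 fold change from 7 to 14 DAP of the 90 genes in wild type (horizontal) and in the mutant (vertical), with SE bars, from the edgeR fit of 12 libraries. On the dashed line the change is equal in the genotypes. Of the genes, 23 lie above it and 26 below it with a called difference, and 41 had no called difference.

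The size of the genotype effect differed between the stages for many of the 90 genes. It is built from both contrasts that the rule used and is read as a description. By the edgeR test of the difference, with all 12 libraries, 23 genes were reduced less at 14 DAP than at 7 DAP and 26 were reduced more, while 41 were not called. Among all genes past the floor, 26.8% had a difference above 0 and 27.6% one below 0 (22.8% and 24% of all genes tested). In either direction, 49 of the 90 and 54.4% of genes past the floor were called, so that the share among the 90 is that of other genes. Beyond 2-fold, 11 of the 90 (12.2%) had a difference above 0 and 17 (18.9%) one below 0, against 2.95% and 4.35% of genes past the floor. These shares are larger than in other genes. The 90 had few mutant counts, with medians of 156.5 at 7 DAP and 59.5 at 14 DAP summed over 3 libraries. Their differences had a median SE of 0.28, and what the larger shares owe to few counts was not tested. The 41 uncalled differences had a median of −0.10 and an SE with a median of 0.35 on the log2 scale.

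The 23 genes reduced less at 14 DAP went from a median of 9.29% of wild type at 7 DAP to 18.0% at 14 DAP. They include Zm00001d006753, with a log2 difference of 1.11 (SE 0.05), Zm00001d043293 with 1.21 (SE 0.09) and Zm00001d038870 with 1.91 (SE 0.16), which had the smallest p-values. Zm00001d043293 had 136, 132 and 125 CPM in wild type and 14.6, 12.3 and 12.2 CPM in the mutant at 7 DAP, and 48.9, 52.1 and 50.7 CPM against 10.7, 12.1 and 12.8 CPM at 14 DAP. Wild type fell while the mutant hardly moved. Zm00001d042243, one of the genes at the limit, had 24.7, 20.8 and 23.0 CPM against 2.84, 2.17 and 1.95 CPM at 7 DAP, and 4.15, 4.63 and 3.94 CPM against 0.890, 1.17 and 1.11 CPM at 14 DAP.

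The 26 genes reduced more at 14 DAP went from a median of 19.6% of wild type at 7 DAP to 6.12% at 14 DAP. Zm00001d013099 had 176, 162 and 160 CPM in wild type and 37.9, 35.8 and 35.5 CPM in the mutant at 7 DAP. At 14 DAP it had 52.6, 57.7 and 48.6 CPM in wild type and 2.14, 1.80 and 1.22 CPM in the mutant, a change from 4.55-fold to 30.9-fold lower (log2 difference −2.80, SE 0.14). Its lowest group, the mutant at 14 DAP, rests on 97 counts. Zm00001d009631 (log2 difference −0.82, SE 0.05) and Zm00001d012322 (−1.22, SE 0.09), described above, also belong to this set.

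Where the 90 genes lie was described by their rows in the tables, counted from 1 over the 44146 nuclear identifiers. The files give no chromosomes or coordinates, so only order is used. The genes were scattered over most of the table, with denser and emptier parts. With the rows in 4 equal parts, the first held 20 of the genes, the second 34, the third 26 and the last 10. As shares of the genes past the floor in each part these are 0.437%, 0.720%, 0.544% and 0.220%. Of 45 groups of 1000 consecutive rows (the last shorter), 9 held none of the genes, 9 held 1, 11 held 2, 11 held 3, 3 held 4, 1 held 6 and 1 held 8. The 8 lay in rows 12001 to 13000, where they were 1.83% of 436 genes past the floor, and the 6 in rows 29001 to 30000, where they were 1.14% of 526. From row 34001 on, 7 of 11 groups were empty.

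**Figure D4:**
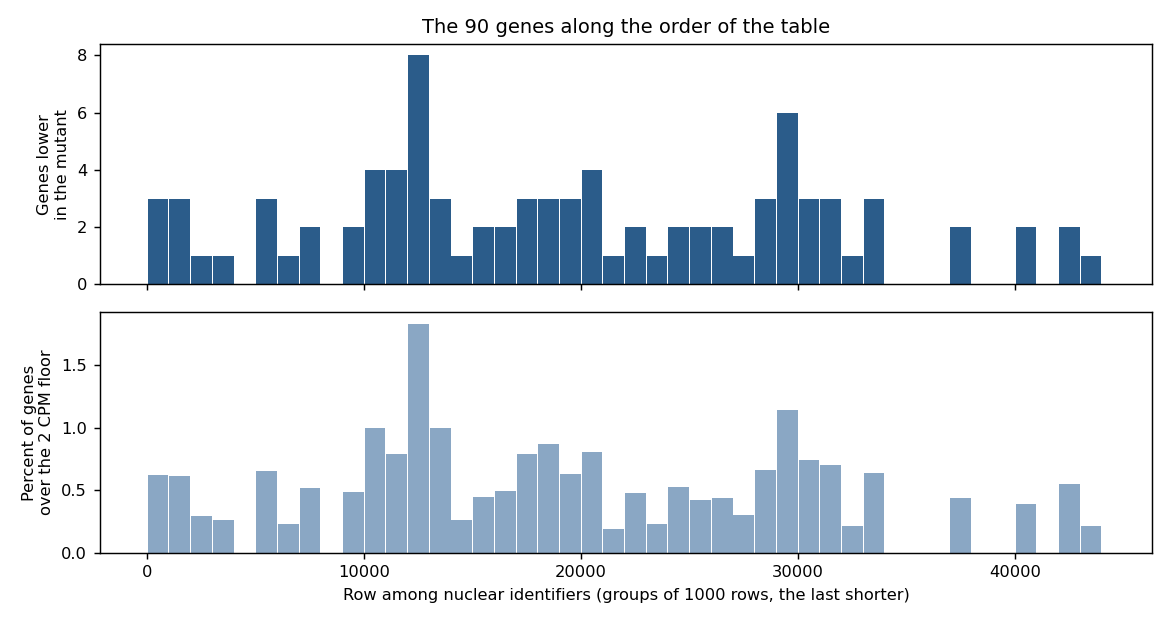
Number of the 90 genes in consecutive groups of 1000 rows of the table (upper) and their percent of the genes past the 2 CPM floor in the same group (lower). The tallest bar holds 8 genes (1.83%), the next 6 (1.14%), and 9 of the 45 groups hold none.

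Most of the 90 had no other of the 90 close by. Another of the genes lay within 10 rows for 8 of the 90, or 8.89%. Of all genes past the floor, 4.13% had one of the 90 that close. The 8 form pairs, each counted from both sides, and the difference between these shares was not tested. Within 25 rows the shares were 17.8% and 9.94%, and within 100 rows 28.9% and 34.6%. No 100 consecutive rows held more than 3 of the 90, a count that 122 overlapping windows of 100 rows reached. The first of these, rows 11864 to 11963, held Zm00001d002402, Zm00001d002436 and Zm00001d002446 among 58 genes past the floor. All 3 fell in wild type from 7 to 14 DAP, with log2 fold changes of −1.06 (SE 0.20), −0.81 (SE 0.11) and −0.64 (SE 0.09).

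Zm00001d002446 had 27.0, 25.8 and 25 CPM in wild type against 5.33, 5.2 and 5.91 CPM in the mutant at 7 DAP, and 14.1, 12.2 and 13.8 CPM against 1.78, 2.28 and 1.17 CPM at 14 DAP. Zm00001d002436, 6 rows before it, had 15.4, 16.2 and 14.5 CPM against 2.15, 1.37 and 1.80 CPM at 7 DAP, and 7.75, 6.08 and 7.29 CPM against 0.475, 0.826 and 0.355 CPM at 14 DAP. In both genes the mutant also fell between the stages. Zm00001d002402 went from 5.69 ± 0.609 to 2.18 ± 0.488 CPM in wild type and was at 0.842 ± 0.405 and 0.540 ± 0.103 CPM in mutant libraries (SD, n = 3 each).

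The 3 remaining pairs within 10 rows were closer still, and were singled out for that. Zm00001d021278 and Zm00001d021279 hold consecutive rows but differed in level and in stage behaviour. The first went from 77.2 to 18.7 CPM in wild type and from 14.3 to 1.89 CPM in the mutant, while the second is the scarce gene described above, with no called change between stages in either genotype. Zm00001d021934 and Zm00001d021936, 2 rows apart, both fell in wild type, from 154 to 44.1 CPM and from 31.3 to 7.58 CPM, and were reduced unequally, to 8.22% and 23.2% of wild type at 7 DAP. Zm00001d044106 and Zm00001d044110, 3 rows apart, differed most at 14 DAP, at 2.03% and 13.4% of wild type, with 11 mutant counts behind the first value. The sources used here do not state how reads with several alignments, or reads over overlapping genes, were counted, and values of close or similar genes may share reads.

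Genes near the 90 in the table, but not among them, were examined next. The rule was applied to these genes as well and they failed it, as did all the genes outside the 90 set beside them. Of 987 tested neighbours within 10 rows at 7 DAP, 98 were called lower in the mutant by more than 2-fold (9.93%) and 54 higher (5.47%). All tested nuclear genes outside the 90 had 8.17% and 6.24%. At 14 DAP, 108 of 980 neighbours were lower by more than 2-fold (11.0%) and 38 higher (3.88%), against 8.51% and 4.39%. Without the limit of 2-fold, 35.3% of neighbours were called lower and 35.2% higher at 7 DAP (35.4% and 35.7% over all others, and 35.6% and 35.5% over all genes tested), and 33.1% and 31.6% at 14 DAP (31.8% and 31.9%, and 32.1% and 31.7%).

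The share lower by more than 2-fold was larger at shorter distance. Within 5 rows it was 12.4% of 498 genes at 7 DAP and 12.7% of 488 at 14 DAP, and within 25 rows it was 9.04% of 2368 and 10.1% of 2343. The median log2 fold change within 10 rows was close to 0, at −0.01 at 7 DAP and 0.01 at 14 DAP. Around the 23 genes higher in the mutant, 4.47% of 291 neighbours within 10 rows were lower by more than 2-fold at 7 DAP and 7.90% were higher. At 14 DAP these shares were 7.72% and 5.61% of 285. These are counts over genes, which are not independent, and were not tested.

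**Figure D5:**
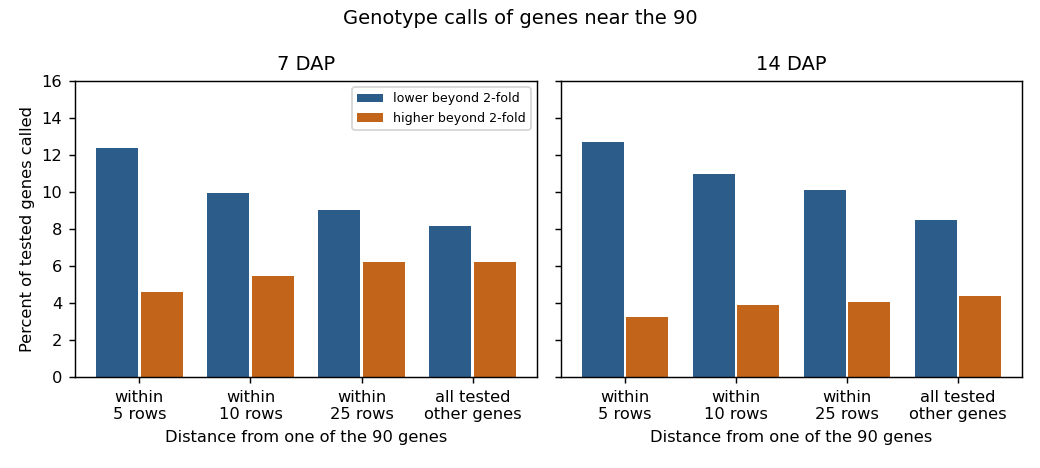
Percent of tested genes outside the 90 that were called lower (blue) or higher (orange) in the mutant by more than 2-fold at 7 DAP (left) and 14 DAP (right), by distance in rows from one of the 90. The share called lower goes from 12.4% within 5 rows to 8.17% over all tested genes outside the 90 at 7 DAP, and from 12.7% to 8.51% at 14 DAP.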

How the data were processed

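The authors deposited a table of raw read counts per gene for each stage, with 1 column per library and no normalization. The submitters' processing notes name the build B73 RefGen_v4 and the tools featureCounts 1.6.4, HISAT2 2.2.1, DESeq2, StringTie 1.3.6 and Trimmomatic 0.39, with no order or role. The library kit was NEBNext Ultra II RNA, with DNase used on the RNA, per the labels' protocols. Columns were matched to samples by the description, with case kept. The reference gene table is of another assembly, Zm-B73-REFERENCE-NAM-5.0, and matched 0 of 44146 nuclear identifiers.

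Levels are CPM from library totals. Tests used R 4.3.3 and edgeR 4.0.16 (quasi-likelihood, TMM, default filter by group, robust, Benjamini-Hochberg over all genes tested). Genotypes were fitted within a stage (6 libraries), stages and their difference on 12 libraries. Each SE was taken from the F statistic, as the size of the log2 fold change over the root of F. All 90 genes passed the filter, since the floor of the rule lies above it. Deviations of replicates sharing a number were at most weakly correlated. Alternatives were RLE factors, library totals, no filter, DESeq2 1.42.0, a replicate block, other limits of the rule and each library left out.

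The members, rules and tests were chosen with earlier results of these data known. Named genes were the 6 most counted, the 6 with fewest mutant counts, the 4 largest called rises and 4 falls in wild type, those of the densest 100 rows, 3 on each side of the limit and 3 in each direction of the difference by adjusted p. Others are marked where named.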

Additional observations from a re-analysis of the deposited data

Results flagged for a closer look

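The genotype effect was called different between 7 and 14 DAP, by the edgeR test of the difference itself, for 49 of the 90 genes, where 54.4% of all genes past the floor were called, so the count is no result about the 90. The difference is built from the contrasts that chose the genes, and its values are a description. The 6 genes below are the 3 in each direction with the smallest adjusted p-values of this difference, and not the 6 smallest of all. Zm00001d006753 (log2 difference 1.11), Zm00001d043293 (1.21) and Zm00001d038870 (1.91) were reduced less at 14 DAP. Zm00001d009631 (−0.82), Zm00001d013099 (−2.80) and Zm00001d012322 (−1.22) were reduced more at 14 DAP. Groups of 3 libraries are too small for a test of single libraries that stand apart.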

How the results depend on the processing

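The number of genes found depended most on the limits of the rule. It was 51 with a ratio of at most 0.2, 528 with at most 0.5, 56 with a floor of 5 CPM, 116 with 1 CPM, and 57 with every mutant library at most 0.25 of every wild-type library. Leaving out 1 library gave 86 to 91 genes, TMM scaling 102 and RLE 98. With library totals only, the genes that rose in wild type went from 20 to 12, and the 90 genes had a median genotype log2 fold change of −2.73 at 7 DAP and −2.86 at 14 DAP, against −2.79 and −2.95. With 1 library left out these medians were −2.80 to −2.74 and −3.00 to −2.94. Leaving out 1 library gave 17 to 20 rises and 60 to 62 falls in wild type, 11 to 15 and 51 to 53 in the mutant, and 17 to 25 genes reduced less and 23 to 28 reduced more at 14 DAP. The share with another of the 90 nearby was 17.8% within 25 rows, 18.9% within 10 genes past the floor, and 6.67% to 9.30% with 1 library left out. The share of neighbours lower by more than 2-fold at 7 DAP was 12.4% within 5 rows, and around the 23 higher genes 4.47% at 7 DAP and 7.72% at 14 DAP, with 7.90% and 5.61% higher.

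Deviations of same-numbered libraries had correlations between −0.01 and 0.05. For libraries with other numbers they were between −0.04 and 0.02, so any link by number was weak. With the replicate block, 19 genes rose and 60 fell in wild type, 14 rose and 52 fell in the mutant, and 23 and 26 differed between stages. No call of the named genes reversed in 1139 values, but 51 lost the threshold, for 10 of 67 results. Most of these were the weak rises of Zm00001d033517 (12 of its values, log2 0.21 to 0.57) and Zm00001d040526 (8, 0.16 to 0.49) in wild type and of Zm00001d025409 in the mutant (13, 0.77 to 1.33). With library totals only, the wild-type rises of Zm00001d006753 (0.02), Zm00001d012322 (0.03) and Zm00001d039644 (0.28) were lost. Depth limits folds of genes with few mutant counts.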
